A study of Arabidopsis thaliana with 6 samples.

Results

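Heat shock proteins are chaperones, and 34 of their genes in Arabidopsis thaliana were followed here among the 30457 features listed in each library. The 34 were taken by locus. They comprise 2 HSP100 genes, 4 cytosolic HSP90 genes, 5 cytosolic HSP70 genes, 3 BiP genes, 15 small HSP genes, 4 co-chaperone genes and MBF1C, a transcriptional coactivator of the heat response. The study compared ovule RNA from wild-type plants (3 libraries) with that from the sgd mutant (3 libraries), all in the qrt1 background, in which the pollen grains of a meiosis stay joined. Plants were grown at 22 °C with 16 h of light and 8 h of dark, no heat treatment is named in the labels, and ovules were taken at stages FG1 to FG3 of the female gametophyte. The labels name neither plant age nor the locus and allele behind sgd, so the mutated transcript was not analysed here.

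Chaperones hold unfolded proteins and help them to fold, to be taken apart from aggregates or to be sent for breakdown. Small HSPs bind unfolding proteins without ATP. HSP70 and HSP90 fold their clients in cycles driven by ATP, and HSP100 proteins pull aggregates apart. In plants each class has members that are made at all times and members that are made on heat or other protein-damaging stress, when heat shock factors bind repeats of nGAAn, the heat shock element, before the genes. BiP is the HSP70 of the endoplasmic reticulum (ER) and belongs to the separate unfolded protein response of that organelle.

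HSP101, HSP90.1, HSP70-4, HSP70-5, 9 small HSP genes, BAG6 and MBF1C were higher in the sgd libraries, and BIP1 and BIP2 were lower. No difference was called for the other cytosolic HSP90 and HSP70 genes. A feature was tested when its mean over the 6 libraries was at least 1 FPKM (fragments per kilobase of a transcript, divided by the library's mapped fragments), and called at an adjusted p under 0.05 in limma with Benjamini-Hochberg adjustment over all 18100 features tested. Of the 34 genes, 29 were tested, 15 were called higher in sgd, 2 were called lower and 12 were not called. Among all features tested, 13.3% were called higher and 4.47% lower. The median log2 change was 1.32 over the 29 genes and 0.13 over all features tested, with changes taken as sgd minus wild type of log2(FPKM + 1). Adding 1 makes the change of a low gene look smaller. Of the 29, 5 had a wild-type mean under 1 FPKM and passed the filter through their sgd values, so the count and the median over the 29 describe the tested genes and are not support for a change of the class. The genes outside the test were BIP3, HSP18.2, HSP15.4, HSP21 and AT1G52560.

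All 3 sgd libraries lay above all 3 wild-type libraries in 21 of the 34 genes, below them in 3 and overlapped in 10. In the 29 tested genes these counts were 19, 2 and 8. Among all features tested, 26.8% lay wholly above and 8.80% wholly below. With the replicate number as a block, 18 of the 29 were called higher and 4 lower, beside 26.5% and 14.3% of all features. The block added HSP22.0, HOP3 and FKBP65 to those higher, and FKBP62 and HSP90.4 to those lower. Rescaling moved these splits: with median-ratio scaling 9 of the 29 were called higher and 4 lower, beside 19.8% and 18.2% of all features. It moved the median change of all features tested to 0.001. With no filter on low values, 4 of the 34 were called higher, beside 5.71% of 30457 features, and 0 lower.

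**Figure D1:**
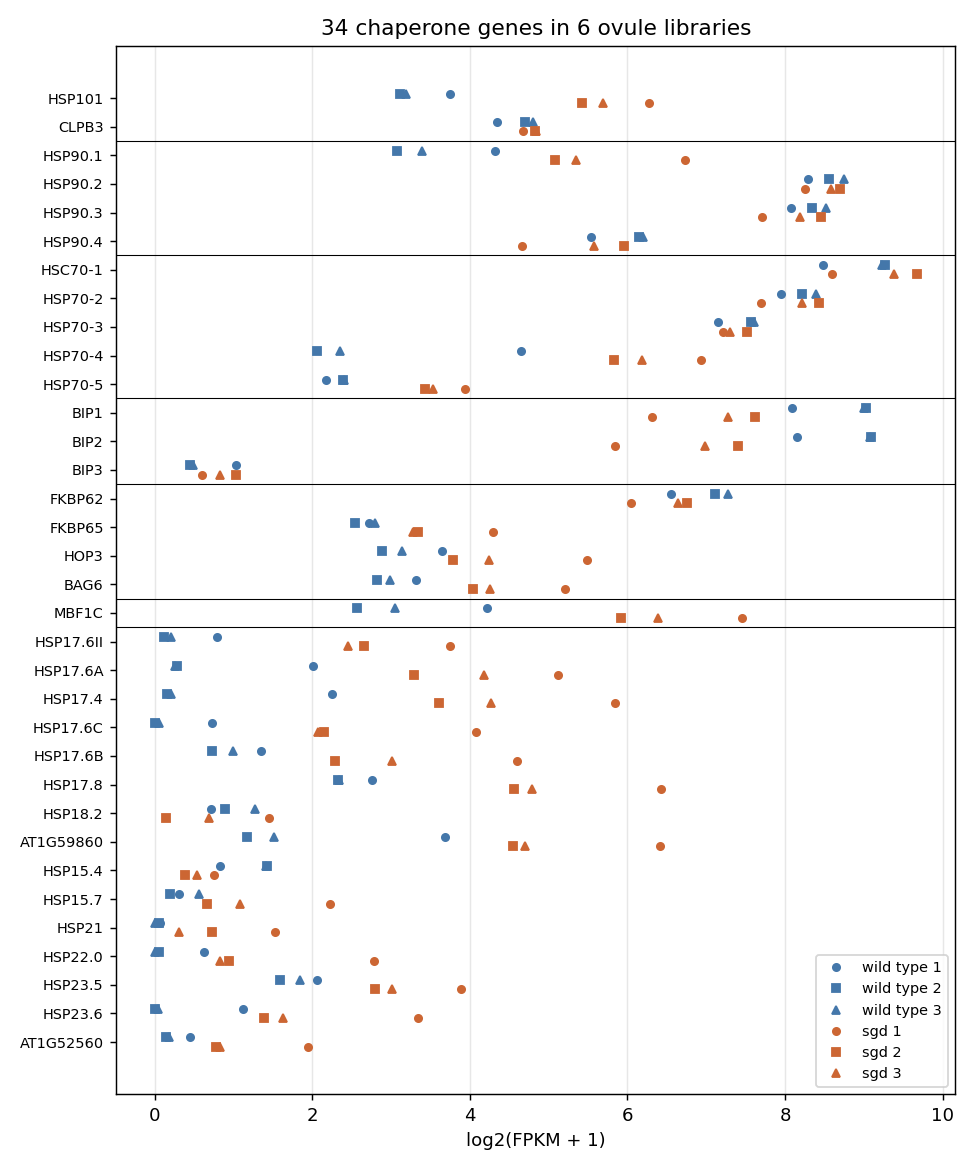
Level of each of the 34 genes in each library on the log2(FPKM + 1) scale, with wild type in blue, sgd in orange and the marker shape giving the replicate number, and with horizontal lines between classes. The sgd points lie to the right of the wild-type points in 21 genes and to the left in 3.

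The replicate 1 libraries stood apart from the others in both genotypes, and this touched the chaperones directly. The second principal component of all tested features set the replicate 1 libraries of wild type and sgd on one side and held 30.8% of the variance, beside 58.6% on the first component, which followed genotype. Summed over all features, FPKM came to 528715 in wild-type library 1 and 561173 in sgd library 1, and to 750410 to 796250 in the others. The FPKM values and sums printed here were not rescaled for this difference, and its part in them was not tested. Of the 15 genes called higher, 14 had their highest wild-type value in wild-type library 1, and all 15 had their highest sgd value in sgd library 1. The level in wild-type library 1 over the mean of wild-type libraries 2 and 3 had a median of 2.89 among the 15, with a range from 0.82 to 78.0. The same ratio within sgd had a median of 2.59 and ran from 1.41 to 4.98. Among all features tested, library 1 held the highest value in 9.30% in wild type and in 11.1% in sgd. The differences within replicate numbers had medians of 2.73, 2.23 and 2.24 over the 15 for numbers 1, 2 and 3 on the log2(FPKM + 1) scale; their sign was fixed by the choice of genes without overlap between groups. Without both replicate 1 libraries, 27 of the 34 genes were tested, 16 were called higher and 4 lower, beside 32.2% and 17.5% of all features.

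**Figure D2:**
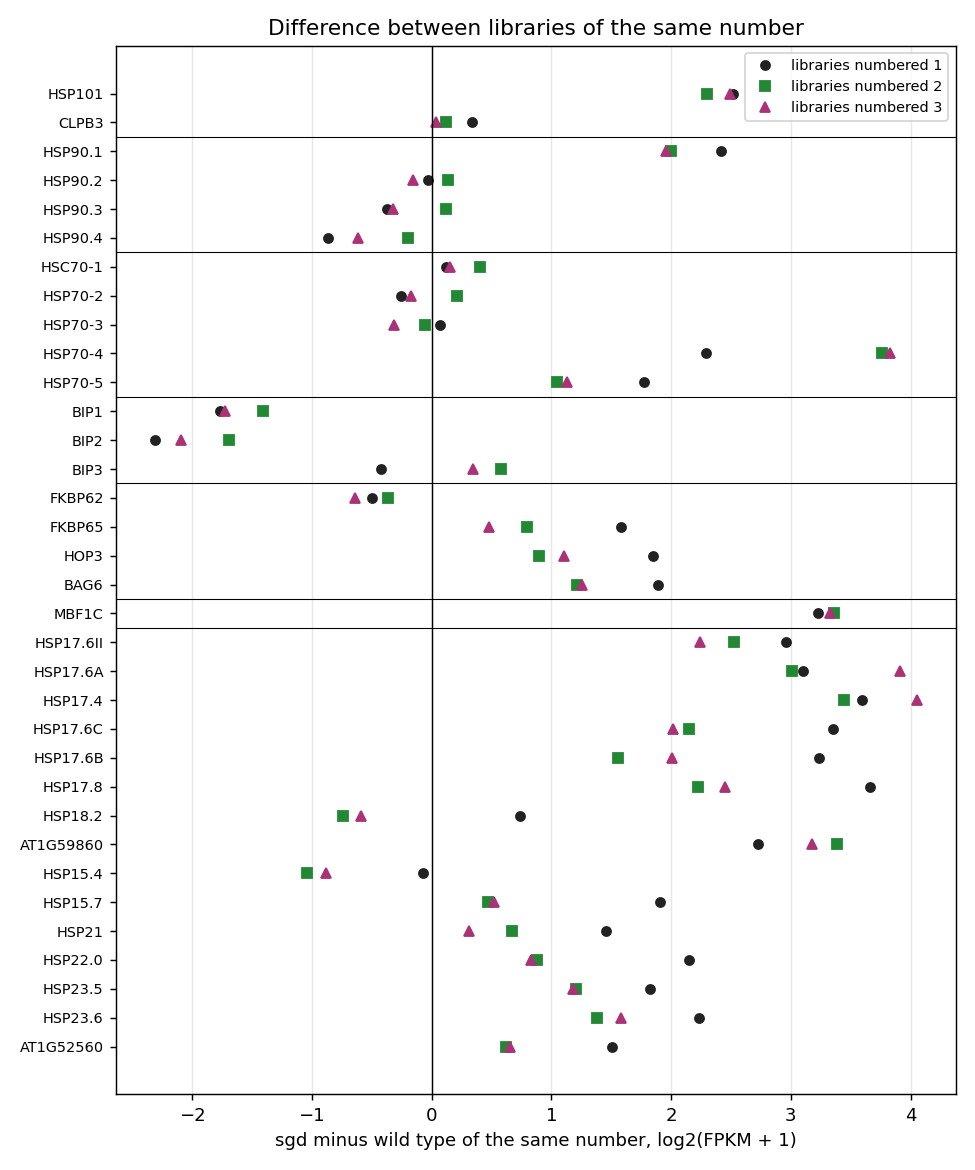
Difference between the sgd and the wild-type library of the same replicate number for each of the 34 genes, on the log2(FPKM + 1) scale, with circles, squares and triangles for numbers 1, 2 and 3. The 15 genes called higher, whose sign is fixed by that choice, lie between 1.04 and 4.06.

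Markers of pollen moved with genotype in the same libraries. Of 15 pollen and sperm markers, 11 were tested, of which 7 were called higher in sgd and none lower. For this and the other marker lists, the shares over all features tested were 13.3% higher and 4.47% lower. Of the 7, 2 had a wild-type mean under 1 FPKM and passed the filter through their sgd values. For 2 genes of sperm cells, neither called, all sgd values lay below all wild-type values. GEX2 measured 1.77, 2.23 and 2.41 FPKM in wild type and 0.40, 1.08 and 1.11 FPKM in sgd and was called lower with the block (limma, Benjamini-Hochberg adjusted p = 0.0472) and with median-ratio scaling (adjusted p = 0.0191). HAP2, under the filter, measured 0.83 to 1.36 FPKM in wild type and 0.16 to 0.48 FPKM in sgd. MGH3, also a sperm cell gene under the filter, went the other way without overlap. It measured 0.29, 0.06 and 0.11 FPKM in wild type and 0.86, 0.56 and 0.63 FPKM in sgd. The summed level of the 15 markers was 34.3 to 42.9 FPKM in wild type and 109.9 to 211.6 FPKM in sgd, while DUO1, a regulator of the male germline, stayed at 0.21 FPKM or less in every library. VGD1, a pollen tube pectin methylesterase, measured 6.40, 2.09 and 2.81 FPKM in wild type and 58.8, 54.8 and 27.6 FPKM in sgd. The 6 markers of anther tapetum summed to at most 0.66 FPKM in any library and the 15 markers of seed maturation to at most 1.23 FPKM. The 10 ovule markers summed to 816.2 to 1526 FPKM in wild type and 581.8 to 1005 FPKM in sgd. Of the 8 tested, ANT and BEL1, regulators of ovule outgrowth and integument identity, were called lower and none higher, and with the block or with median-ratio scaling 4 were lower and 1 higher. The higher gene was SHP1, at 111.7, 170.4 and 161.2 FPKM in wild type and 176.4, 262.7 and 262.7 FPKM in sgd. Over all features tested, 14.3% were lower and 26.5% higher with the block, and 18.2% and 19.8% with median-ratio scaling. The 9 green tissue markers summed to 747.5 to 2087 FPKM in wild type and 2357 to 3767 FPKM in sgd, and 2 were called higher and none lower. The part of these tissues in the chaperone values was not tested. In RNA from whole ovules, a change in the share of a cell type and a change in RNA per cell cannot be told apart.

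Heat shock elements were searched in the 500 bases before the start codon of each gene in the RefSeq TAIR10.1 genome. This stretch includes any annotated 5' leader. The strict form was 3 units, GAA and TTC in turn, with 2 bases of any kind between units, on either strand. The relaxed form was 2 such units (GAANNTTC or TTCNNGAA), and every strict match contains it. The strict form was present in 10 of the 34 genes and in 1.2% of 27443 protein-coding genes, and the relaxed form in 27 of the 34 and in 33.9%. The relaxed form was found before all 15 genes called higher, 8 of the 12 not called, neither BIP1 nor BIP2, and 4 of the 5 not tested. The strict form was found before 4 of the 15 and 5 of the 12, so it occurred beside genes that were called and genes that were not. In all, 4 windows were searched, and the 500 bases before the start codon were chosen for the text after the matches in all of them had been seen, because they held the most matches. With 300 bases before the start codon, the strict form was in 10 genes (0.747% of all genes) and the relaxed form in 23 (22.8%). With 500 bases before the annotated gene start, they were in 3 (0.827%) and 13 (30.2%), and with 250 bases before it in 2 (0.386%) and 9 (16.1%). Before the gene start, 7 and 5 of the 15 genes called higher held the relaxed form at 500 and 250 bases, and before the start codon 13 did at 300 bases, so its presence in all 15 holds only for the window chosen. A match is a description of the letters and not a site shown to be bound.

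All strict matches are shown, those of HSP17.4 in the longer stretch that follows, because genes with a match fell on both sides of the call. Each line gives 29 bases on the gene's strand, 5' to 3', from RefSeq TAIR10.1, with the match in capitals.
HSP90.1, chr5:21352254-21352282, plus strand: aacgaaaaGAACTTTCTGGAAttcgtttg
HSP70-4, chr3:3993846-3993874, minus strand: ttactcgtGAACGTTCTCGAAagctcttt
HSP17.6C, chr1:19980238-19980266, plus strand: caacaccaGAAACTTCTTGAAagcacctg
HSC70-1, chr5:556554-556582, minus strand: caaccatcGAACATTCTCGAAacatttta
HSP70-2, chr5:552686-552714, minus strand: taattacaGAACATTCTGGAAactcaagt
HSP70-3 first match, chr3:2905894-2905922, minus strand: atcgaaccGAACATTCTCGAAccttttta
HSP70-3 second match, chr3:2905765-2905793, minus strand: gagccatcGAACCTTCTCGAAactcgagt
HOP3, chr4:7341319-7341347, minus strand: aaaaattcGAAATTTCGAGAActctcttg
HSP22.0, chr4:6370379-6370407, plus strand: aaagatatTTCAAGAAACTTCttcattct
HSP18.2, chr5:24062388-24062416, plus strand: caacaaacGAAACTTCCTGAAatgccaag
HSP90.1, HSP70-4 and HSP17.6C were called higher, HSC70-1, HSP70-2, HSP70-3, HOP3 and HSP22.0 were not called, and HSP18.2 was not tested. The matches of HSP90.1 and HSP17.6C lie before the annotated gene start and the others of these lines between the gene start and the start codon.

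HSP17.4, the gene with the largest called log2 change of the 34 at a pseudocount of 1 (at 0.01 it was HSP17.6C), holds 2 strict matches in the 250 bases before its annotated start, shown here whole with the matches in capitals.
HSP17.4, chr3:16984868-16985117, minus strand: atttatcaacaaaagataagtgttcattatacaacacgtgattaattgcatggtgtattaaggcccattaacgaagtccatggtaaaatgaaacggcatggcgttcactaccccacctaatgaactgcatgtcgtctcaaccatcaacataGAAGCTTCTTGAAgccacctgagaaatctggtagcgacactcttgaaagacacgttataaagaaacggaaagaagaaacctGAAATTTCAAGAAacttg

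Of the 15 small HSP genes, 11 were tested, 9 were called higher and none lower, with log2 changes of the 11 from 0.97 to 3.70. The shares over all features tested were 13.3% higher and 4.47% lower. Of the 11, 5 had a wild-type mean under 1 FPKM and passed the filter through their sgd values, and 3 of these were called higher. The counts of this class are therefore not support for its change. The summed level of the 15 genes was 34.3, 11.2 and 13.8 FPKM in the wild-type libraries, in the order of their numbers, against 350.5, 88.4 and 114.9 FPKM in sgd. The lowest sgd sum was above the highest wild-type sum. These genes made up 1.58%, 0.356% and 0.419% of the summed FPKM of the 34 genes in the wild-type libraries and 14.4%, 2.96% and 4.32% in the sgd libraries.

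Class I small HSPs are cytosolic, and 5 of the 6 genes of the class passed the filter and were called higher, beside 13.3% of all features tested. HSP17.6C passed the filter through its sgd values, and HSP18.2 did not pass it. With median-ratio scaling 3 of the 5 were called higher, beside 19.8% of all features. With no filter none of the 5 was called (limma, Benjamini-Hochberg adjusted p from 0.057 for HSP17.8 to 0.132 for AT1G59860). HSP17.4 (AT3G46230) measured 3.76, 0.12 and 0.16 FPKM in wild type and 56.5, 11.2 and 18.3 FPKM in sgd. All sgd values were above all wild-type values, and library 1 was the highest in each genotype. Its log2 change was 3.70 with a standard error of 0.64 (limma, Benjamini-Hochberg adjusted p = 0.00322). A long non-coding RNA is annotated on the other strand over 453 bases of HSP17.4, and no source used here says whether counting used strand. Genes on the other strand also overlap HSP101 over 101 bases, CLPB3 over 70 bases and HOP3 over 163 bases.

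HSP17.8 (AT1G07400) measured 5.78, 4.01 and 4.04 FPKM in wild type and 85.0, 22.5 and 26.6 FPKM in sgd, and its log2 change was 2.78 with a standard error of 0.44 (limma, Benjamini-Hochberg adjusted p = 0.00200). Its wild-type values were close together while sgd library 1 stood far above the other sgd libraries. AT1G59860, a class I gene called here by its locus, measured 11.9, 1.25 and 1.87 FPKM in wild type and 84.3, 22.5 and 25.0 FPKM in sgd. Its log2 change was 3.10 (limma, Benjamini-Hochberg adjusted p = 0.0093). The limma adjusted p with Benjamini-Hochberg adjustment was 0.053 with median-ratio scaling, 0.055 with quantile normalization and 0.084 with robust eBayes. The groups did not overlap, although wild-type library 1 came within a factor of 1.89 of the lowest sgd library.

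HSP17.6C (AT1G53540) measured 0.65, 0.00 and 0.04 FPKM in wild type and 15.8, 3.43 and 3.21 FPKM in sgd, with a log2 change of 2.51. Its wild-type values rest on an estimated 11.9, 0.0 and 1.0 fragments. HSP17.6B (AT2G29500) rose from 1.56, 0.66 and 1.00 FPKM to 23.2, 3.88 and 7.05 FPKM, with a log2 change of 2.27. Its limma adjusted p with Benjamini-Hochberg adjustment was 0.0505 without wild-type replicate 1, 0.0534 with median-ratio scaling and 0.0628 with quantile normalization. HSP18.2 (AT5G59720), at 0.64, 0.85 and 1.42 FPKM in wild type and 1.73, 0.11 and 0.61 FPKM in sgd, was under the filter and its groups overlapped, unlike those of the other class I genes.

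The class II genes HSP17.6II and HSP17.6A, also cytosolic, were both called higher. HSP17.6A (AT5G12030) measured 3.02, 0.22 and 0.20 FPKM in wild type and 33.6, 8.82 and 17.1 FPKM in sgd, and its log2 change was 3.34 with a standard error of 0.54. HSP17.6II (AT5G12020) measured 0.73, 0.09 and 0.16 FPKM in wild type and 12.5, 5.28 and 4.5 FPKM in sgd, and its log2 change was 2.58. HSP17.6II had a wild-type mean of 0.33 FPKM and passed the filter through its sgd values. Neither gene overlapped between genotypes. The log2 ratio of HSP17.6II to HSP17.6A within a library averaged -0.48 ± 0.64 over the wild-type libraries and -1.24 ± 0.55 over the sgd libraries (SD, n = 3 each), a difference of -0.77 with an exact two-sided permutation p of 0.2.

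Of the 6 small HSPs of organelles, 2 mitochondrial genes were called higher, beside 13.3% of all features tested. Neither was called with median-ratio scaling (limma, Benjamini-Hochberg adjusted p = 0.0667 for HSP23.5 and 0.117 for HSP23.6), equal totals, quantile normalization or no filter. HSP23.5 (AT5G51440) measured 3.18, 2.02 and 2.58 FPKM in wild type and 13.8, 5.97 and 7.10 FPKM in sgd, with a log2 change of 1.40. HSP23.6 (AT4G25200) measured 1.17, 0.00 and 0.03 FPKM in wild type and 9.18, 1.61 and 2.08 FPKM in sgd, with a log2 change of 1.73. HSP23.6 had a wild-type mean of 0.40 FPKM and passed the filter through its sgd values. In both genes the groups were apart, but the lowest sgd value of HSP23.6 was 1.38 times the highest wild-type value, and its limma adjusted p with Benjamini-Hochberg adjustment was 0.0461 with all libraries and 0.0646, 0.113 and 0.105 without wild-type replicates 1, 2 and 3. For HSP23.5 it was 0.0611 without wild-type replicate 2.

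HSP22.0 (AT4G10250), an ER small HSP, measured 0.55, 0.04 and 0.00 FPKM in wild type and 5.88, 0.92 and 0.78 FPKM in sgd, and was not called (limma, Benjamini-Hochberg adjusted p = 0.112, and 0.0490 with the block). HSP15.7 (AT5G37670) of peroxisomes measured 0.24, 0.14 and 0.48 FPKM in wild type and 3.66, 0.58 and 1.12 FPKM in sgd and was not called. In both genes the groups did not overlap and most of the sgd mean came from library 1. Both passed the filter through their sgd values. The chloroplast HSP21 (AT4G27670) was listed at 0.05 FPKM or less in wild type, on at most 1.0 estimated fragments, and at 1.88, 0.66 and 0.24 FPKM in sgd. The mitochondrial small HSP AT1G52560 measured 0.11 to 0.36 FPKM in wild type and 0.71 to 2.86 FPKM in sgd. HSP15.4 (AT4G21870), a cytosolic gene outside these classes, was at 0.78, 1.69 and 1.67 FPKM in wild type and 0.69, 0.31 and 0.45 FPKM in sgd, and was under the filter. Against the direction of the called small HSPs, all its sgd values lay below all its wild-type values. Without both replicate 1 libraries it passed the filter through its wild-type values and was called lower, so that call is not support for a drop.

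Of the 9 cytosolic HSP70 and HSP90 genes, 3 were called higher and none lower, beside 13.3% higher and 4.47% lower among all features tested. The heat-inducible HSP90.1, HSP70-4 and HSP70-5 were called higher, although HSP90.1 and HSP70-4 were not with no filter (limma, Benjamini-Hochberg adjusted p = 0.115 and 0.0896). Their summed level went from 14.9 to 46.6 FPKM in wild type to 98.4 to 241.5 FPKM in sgd. None of the other 6 cytosolic genes, HSP90.2, HSP90.3, HSP90.4, HSC70-1, HSP70-2 and HSP70-3, was called in the main fit. Their summed level was 1366 to 1990 FPKM in wild type and 1275 to 2166 FPKM in sgd. The summed level of the heat-inducible genes thus stayed far below that of the constitutive ones in every library. Single genes did not all keep this order. In sgd library 1, HSP90.1 (105.4 FPKM) and HSP70-4 (121.6 FPKM) were above HSP90.4 (24.4 FPKM). HSP70-4 was also above HSP90.4 in sgd library 3 (71.7 against 46.8 FPKM).

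**Figure D3:**
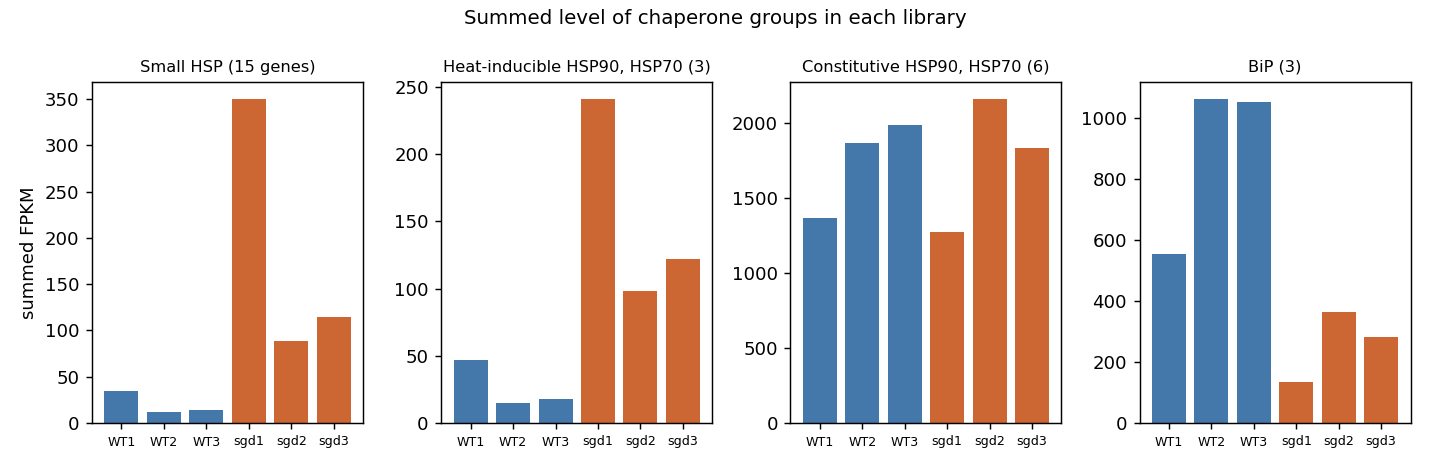
Summed FPKM of 4 groups of chaperone genes in each library, wild type in blue and sgd in orange, each panel with its own axis from 0. The small HSP and heat-inducible sums are higher in all sgd libraries, the constitutive sums overlap, and the BiP sums run from 554.7 to 1065 FPKM in wild type and from 135.2 to 363.8 FPKM in sgd.

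HSP70-4 (AT3G12580), a heat-inducible cytosolic HSP70, measured 24.1, 3.18 and 4.12 FPKM in wild type and 121.6, 55.8 and 71.7 FPKM in sgd. The lowest sgd value was 2.32 times the highest wild-type value, which was in library 1. Its log2 change was 3.29 with a standard error of 0.60 (limma, Benjamini-Hochberg adjusted p = 0.00409). HSP70-5 (AT1G16030) measured 3.51, 4.24 and 4.30 FPKM in wild type and 14.4, 9.81 and 10.6 FPKM in sgd, with a log2 change of 1.32 (limma, Benjamini-Hochberg adjusted p = 0.00565). It was the exception among the 15 called higher in that wild-type library 1 was not its highest wild-type library.

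HSC70-1 (AT5G02500), the main constitutive HSP70, measured 355.2, 617.4 and 597.5 FPKM in wild type and 386.1, 817.5 and 664.5 FPKM in sgd. The groups overlapped, and the log2 change was 0.23 with a 95% interval from -0.77 to 1.23. For HSP70-2 (AT5G02490) and HSP70-3 (AT3G09440) the intervals ran from -0.87 to 0.73 and from -0.79 to 0.60. A missed threshold does not show that these genes were unchanged. HSP70-3 overlaps a neighbour on the other strand over 863 bases.

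HSP90.1 (AT5G52640), the heat-inducible cytosolic HSP90, measured 19.0, 7.44 and 9.49 FPKM in wild type and 105.4, 32.7 and 39.7 FPKM in sgd. The groups did not overlap, and the log2 change was 2.12 with a standard error of 0.46 (limma, Benjamini-Hochberg adjusted p = 0.0102). Its adjusted p in limma with Benjamini-Hochberg adjustment was 0.0550 with equal totals, 0.0644 with median-ratio scaling and 0.0679 with quantile normalization. HSP90.2 (AT5G56030) measured 310.9, 375.3 and 427.3 FPKM in wild type and 303.8, 412.8 and 383.5 FPKM in sgd, with overlapping groups and a log2 change of -0.02. HSP90.3 (AT5G56010) measured 267.9 to 364.4 FPKM in wild type and 207.2 to 350.9 FPKM in sgd. HSP90.4 (AT5G56000) measured 45.3, 70.0 and 72.3 FPKM in wild type and 24.4, 61.1 and 46.8 FPKM in sgd, overlapping. Its log2 change was -0.56 (limma, Benjamini-Hochberg adjusted p = 0.361). In 6 of 19 alternative fits HSP90.4 was called lower, among them the block (limma, Benjamini-Hochberg adjusted p = 0.0431) and median-ratio scaling (0.0287). HSP90.2, HSP90.3 and HSP90.4 share 18.8%, 23.9% and 18.7% of their 50-base transcript windows with another gene, so the split of fragments between these 3 is uncertain.

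Within libraries, the log2 ratio of HSP90.1 to HSP90.2 averaged -4.93 ± 0.84 over the wild-type libraries and -2.79 ± 1.12 over the sgd libraries (SD, n = 3 each). The difference of 2.14 had an exact two-sided permutation p of 0.1, which is the smallest that 3 against 3 libraries allow, and 0.15 after Benjamini-Hochberg adjustment over the 6 pairs compared. The ratio of HSP70-4 to HSC70-1 differed by 3.07, with an exact two-sided permutation p of 0.2, since wild-type library 1 reached the range of sgd. None of the 6 ratios passed 0.05, and with these group sizes none could.

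Of the HSP100 genes, HSP101 was called higher, beside 13.3% of all features tested, and CLPB3 was not called. HSP101 (AT1G74310), the cytosolic disaggregase needed for acquired heat tolerance, measured 12.4, 7.66 and 8.16 FPKM in wild type and 76.1, 41.8 and 50.5 FPKM in sgd. The lowest sgd value was 3.36 times the highest wild-type value, and the log2 change was 2.44 with a standard error of 0.31 (limma, Benjamini-Hochberg adjusted p = 0.000562). The chloroplast CLPB3 (AT5G15450) measured 19.3, 25.1 and 26.9 FPKM in wild type and 24.6, 27.4 and 27.6 FPKM in sgd, with overlapping groups and a 95% interval of the log2 change from -0.39 to 0.72. The log2 ratio of HSP101 to CLPB3 was 2.27 higher in sgd, with an exact two-sided permutation p of 0.1.

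MBF1C (AT3G24500), the coactivator, was among the largest changes. It measured 17.66, 4.92 and 7.30 FPKM in wild type and 173.6, 59.7 and 82.5 FPKM in sgd, without overlap. Its log2 change was 3.31 with a standard error of 0.48 (limma, Benjamini-Hochberg adjusted p = 0.00122), and the differences within replicate numbers lay between 3.23 and 3.36. Genes annotated on the other strand overlap MBF1C over 22, 124 and 176 bases.

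Of the 4 co-chaperones, BAG6 was called higher, beside 13.3% of all features tested. It was not called with median-ratio scaling (limma, Benjamini-Hochberg adjusted p = 0.0755), equal totals (0.0606), quantile normalization (0.0806) or no filter (0.0918). BAG6 (AT2G46240), which binds HSP70 through its BAG domain, measured 8.97, 6.08 and 6.96 FPKM in wild type and 36.0, 15.5 and 18.1 FPKM in sgd, with a log2 change of 1.46. HOP3 (AT4G12400), which links HSP70 to HSP90, measured 11.5, 6.42 and 7.78 FPKM in wild type and 44.0, 12.8 and 17.9 FPKM in sgd and did not pass (limma, Benjamini-Hochberg adjusted p = 0.0570, and 0.0138 with the block).

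FKBP65 and FKBP62 are a pair of related immunophilins that bind HSP90, the first heat-inducible. FKBP65 (AT5G48570) measured 5.57, 4.83 and 5.95 FPKM in wild type and 18.7, 9.12 and 8.70 FPKM in sgd, without overlap, and did not pass (limma, Benjamini-Hochberg adjusted p = 0.0586, and 0.0365 with the block). FKBP62 (AT3G25230) measured 92.5, 137.7 and 154.2 FPKM in wild type and 65.3, 106.6 and 98.7 FPKM in sgd, with overlapping groups. It was not called in the main fit (limma, Benjamini-Hochberg adjusted p = 0.368). In 7 of 19 alternative fits it was called lower, among them the block (limma, Benjamini-Hochberg adjusted p = 0.0185) and median-ratio scaling (0.0054).

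**Figure D4:**
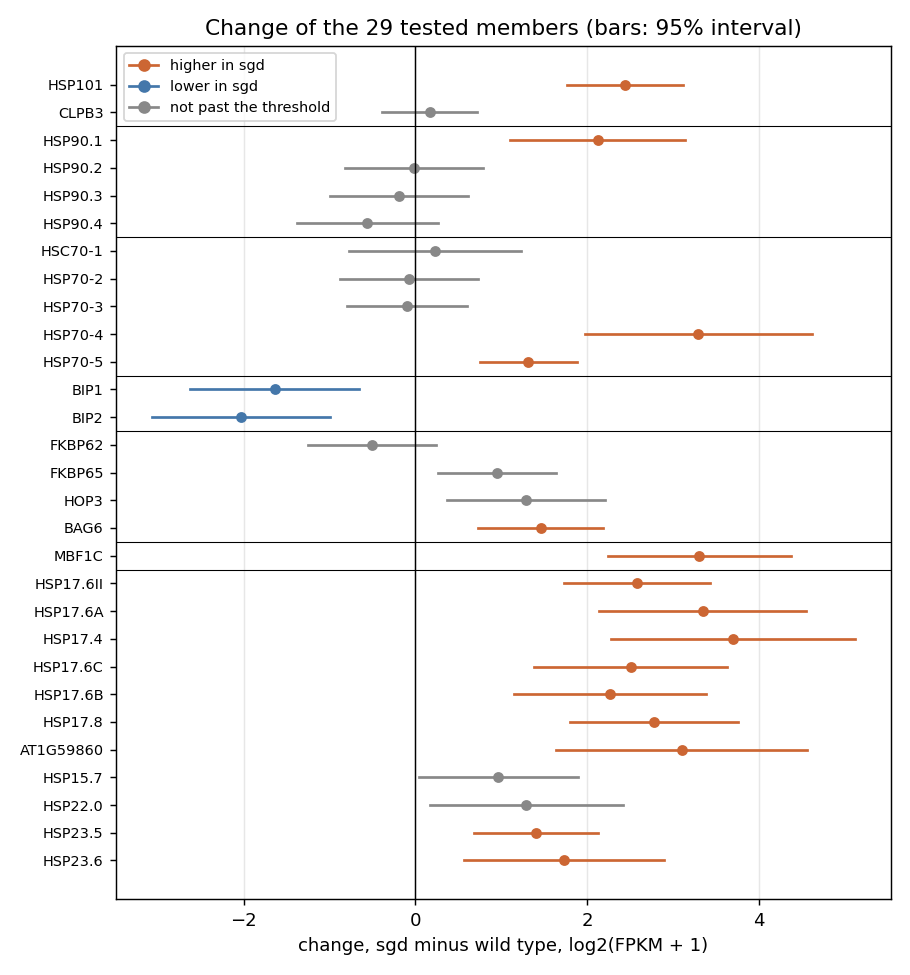
Log2 change of the 29 tested genes, sgd minus wild type on the log2(FPKM + 1) scale, with points for the estimate and bars for the 95% interval from limma, in orange for the 15 called higher, blue for the 2 called lower and grey for the 12 not called. Changes run from -2.03 for BIP2 to 3.70 for HSP17.4.

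Of the 3 BiP genes, BIP1 and BIP2 were called lower, beside 4.47% of all features tested, and BIP3 was not tested. BIP2 (AT5G42020) measured 283.6, 545.2 and 540.5 FPKM in wild type and 56.3, 167.7 and 125.9 FPKM in sgd. The groups did not overlap, with library 1 lowest in each genotype, and its log2 level fell by 2.03 with a standard error of 0.47 (limma, Benjamini-Hochberg adjusted p = 0.0137). BIP1 (AT5G28540) measured 270.1, 519.9 and 513.2 FPKM in wild type and 78.4, 195.1 and 154.1 FPKM in sgd, and fell by 1.64 (limma, Benjamini-Hochberg adjusted p = 0.0285). Without wild-type replicate 2, wild-type replicate 3 or sgd replicate 3, the limma adjusted p of BIP1 was 0.0992, 0.0945 or 0.0719 with Benjamini-Hochberg adjustment. BIP1 and BIP2 share 22.9% and 24.8% of their 50-base transcript windows, so their split is uncertain while their sum is less so.

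BIP3 (AT1G09080), the BiP gene that is strongly induced by ER stress, was at 1.04, 0.37 and 0.40 FPKM in wild type and 0.52, 1.05 and 0.78 FPKM in sgd, under the filter and overlapping. It was the only one of the 34 genes with an ER stress element, CCAAT and CACG with 9 or 10 bases between them on either strand, in the 500 bases before the start codon, where 1.26% of all genes had one. Its 2 matches are shown because no match was found before BIP1 or BIP2; both lines are on the gene's strand in RefSeq TAIR10.1, with the match in capitals.
BIP3 first match, chr1:2932001-2932029, minus strand: tgtcaCGTGTCTGCTTGTGATTGGgtact
BIP3 second match, chr1:2931923-2931951, minus strand: gcttaCGTGTCAAGAAGTGATTGGagagg

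Of 22 other genes of ER folding and the unfolded protein response, 6 were called lower and 3 higher, and 13 and 4 both with the replicate block and with median-ratio scaling. The shares over all features tested were 4.47% lower and 13.3% higher. They were 14.3% and 26.5% with the block, and 18.2% and 19.8% with median-ratio scaling. The median log2 change of the 22 was -0.94. PDIL1-2, a protein disulfide isomerase, measured 96.0, 171.0 and 160.4 FPKM in wild type and 20.6, 52.8 and 47.4 FPKM in sgd. SDF2 and P58IPK, both ER proteins of the folding machinery, fell by 1.45 and 1.60 on the log2 scale. IRE1A, a sensor of ER stress, was called higher with a log2 change of 1.08.

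**Figure D5:**
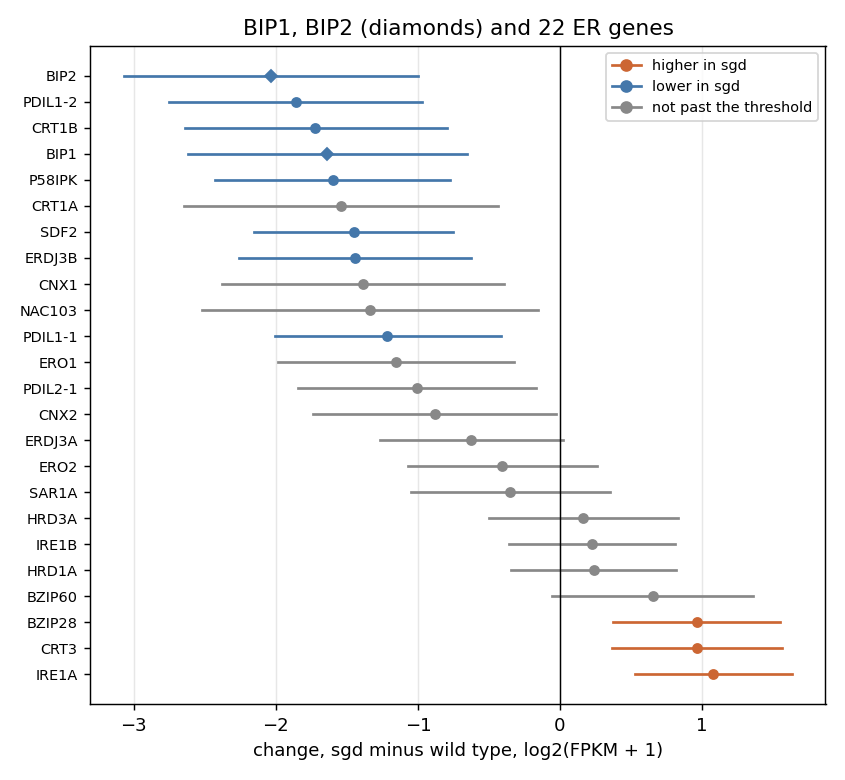
Log2 change with its 95% interval for BIP1 and BIP2 (diamonds) and 22 other ER genes (circles), sgd minus wild type on the log2(FPKM + 1) scale, in blue where called lower, orange where called higher and grey where not called. BIP2, PDIL1-2, CRT1B and BIP1 lie at the low end, from -2.03 to -1.64.

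Other genes of the cytosolic heat response were counted in lists, beside 13.3% higher and 4.47% lower among all features tested. Of 17 heat shock factors tested, 8 were called higher and none lower, and 4 of the 17, HSFA6B and HSFC1 of the 8 among them, had a wild-type mean under 1 FPKM and passed the filter through their sgd values. The 4 with the smallest p were HSFA6B, HSFC1, HSFB1 and HSFA4A, with log2 changes of 2.89, 2.78, 2.26 and 1.71. HSFA2, a heat-induced activator of HSP genes named here after its values were seen, measured 11.8, 1.51 and 3.38 FPKM in wild type and 116.3, 27.5 and 44.0 FPKM in sgd, with library 1 highest in each genotype as for the small HSPs.

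Of 24 other cytosolic co-chaperones, 6 were called higher and none lower, with a median log2 change of 0.09, and with median-ratio scaling 7 were higher and 5 lower. For the lists of this paragraph, the shares over all features tested were 13.3% higher and 4.47% lower in the main fit. They were 26.5% and 14.3% with the block, and 19.8% and 18.2% with median-ratio scaling. The DnaJ gene AT2G20560 measured 10.7, 2.27 and 3.09 FPKM in wild type and 71.4, 32.5 and 39.3 FPKM in sgd, and FES1B, a nucleotide exchange factor of HSP70, rose by 2.07 on the log2 scale. Of 17 other HSP70, HSP90, HSP100 and HSP60 genes tested, 1 was called higher and none lower, while 2 were higher and 10 lower with the replicate block and 1 and 9 with median-ratio scaling. Of 6 other small HSP and related genes, 4 were called higher and 1 lower. The lower gene, HSP14.7, went from 42.2, 39.5 and 36.3 FPKM in wild type to 1.89, 1.73 and 1.22 FPKM in sgd, against the direction of the other called genes of its list.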

How the data were processed

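Poly(A) RNA of ovules was sequenced in 3 wild-type and 3 sgd libraries. The authors deposited FPKM values per feature, per the file headers. The submitters' processing notes list the build TAIR10 and the programs TopHat2 2.1.1, cutadapt 1.15, CASAVA, DESeq2 and RSEM, without saying what each did. Groups and replicate numbers come from the labels, which do not say that the libraries are from separate plants. The p-values therefore reflect the spread among these 6 libraries only, and that spread may be technical.

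Features with a mean of at least 1 FPKM were tested on log2(FPKM + 1) with limma 3.58.1 (R 4.3.3), using lmFit and then eBayes with trend. The tests were two-sided, p-values were adjusted by Benjamini-Hochberg over 18100 features, and the threshold was 0.05. Ratios of related genes were compared by exact permutation over libraries. Same-numbered libraries deviated together, with correlations of 0.524, 0.236 and 0.377 for numbers 1, 2 and 3. Between wild-type library 2 and sgd library 3 the correlation was 0.354, and between wild-type library 3 and sgd library 2 it was 0.431, so numbers 2 and 3 are not told apart, and the other 4 pairs were between -0.513 and -0.367. The labels do not say what a number marks. A fit with the number as a block stands beside the main one where it changes a call.

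Depth, estimated from the steps of low FPKM values and gene lengths, was 25400000, 34300000 and 40200000 fragments in wild-type libraries 1, 2 and 3 and 23800000, 14000000 and 13200000 in sgd. Of the low values used, 93.5% to 95.0% lay within 0.2 of a whole fragment at the fitted step.

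The members and lists were chosen with earlier results of these data known. Of each list, up to 4 tested genes with the smallest p, or a gene a result turns on, were named. Sequences and gene models are from RefSeq TAIR10.1, which matched all 34 genes. Motifs were counted in 4 windows, and the one in the text was picked after seeing the matches.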

Additional observations from a re-analysis of the deposited data

How the results depend on the processing

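Of the 17 chaperone genes called, all 17 were called again in the same direction with pseudocounts of 0.1 and 0.01, eBayes without a trend, array quality weights (whose fit stopped before convergence) and the replicate block, with or without median-ratio scaling. Called members numbered 4 higher and 0 lower with no filter, where 412 of all features were lower. At an unadjusted p under 0.05, 21 of the 29 passed in the filtered fit, beside 5472 of all 18100 features tested. Median-ratio scaling gave 9 higher and 4 lower, with 3286 of all features lower. Members lower numbered 4 with equal totals (all features 4135 higher, 2628 lower), 4 with quantile normalization (3691 lower), 4 with the replicate block (4793 higher, 2583 lower), 5 with array quality weights (8190 higher, 4421 lower), 4 without both replicate 1 libraries (5797 higher, 3156 lower) and 4 with the block after median-ratio scaling (3657 higher, 3502 lower). Leaving out 1 library gave 13 to 18 members higher and 1 to 2 lower, and 1514 to 3505 of all features higher and 382 to 1022 lower. Lost calls under median-ratio scaling were HSP90.1, HSP17.6B, AT1G59860, HSP23.5, HSP23.6 and BAG6; the cause was not tested. Uncalled genes changed sign: under quantile normalization CLPB3 was at -0.023, HSP90.2 at 0.132 and HSP70-2 at 0.025 (log2 change); under array quality weights HSP90.2 was at 0.045 and HSP70-2 at 0.033; without both replicate 1 libraries HSP70-2 was at 0.019. Leaving out 1 library gave ranges from -0.139 to 0.112 for HSP90.2, from -0.361 to 0.018 for HSP90.3, from -0.032 to 0.536 for HSC70-1 and from -0.232 to 0.135 for HSP70-2. Depth limits the genes near 0 FPKM in wild type, which rest on a few fragments, and their log2 changes depend on the pseudocount: HSP17.6C ranged from 1.85 to 6.34 over the alternatives.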
